A study of Drosophila melanogaster with 2 samples.

Results

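The 330 intergenic peaks described here are those of 4344 reproducible Zfh2-eGFP peaks (7.60%, exact 95% interval 6.83 to 8.42%) that lay in no gene and away from every promoter. A peak was a member when its summit, the base of highest signal, fell in no annotated gene body and more than 500 bp from the nearest transcription start site (TSS). Annotated transposable elements did not count as genes. The other peaks were 1214 gene-body peaks outside promoters and 2800 promoter peaks. Promoter peaks had their summit within 500 bp of a TSS. Within this list of reproducible peaks the rule uses position alone and no signal value. The list itself was thresholded on reproducibility, and its lowest signal was 64.9 in members, 65.0 in gene-body peaks and 64.9 in promoter peaks.

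The peaks come from chromatin immunoprecipitation followed by sequencing (ChIP-seq) in *Drosophila melanogaster*. All material was from 1 group: whole embryos of both sexes, 0 to 24 hours old, from a stable transgenic line (zfh2-GFP) in which Zfh2 carries GFP at its C terminus. Chromatin was sonicated to 200 to 800 bp and precipitated with an antibody to GFP, and 2 biological replicates were made. Each value is therefore an average over all embryonic cells and stages, and no second condition or stage was compared. The labels used here do not give the promoter of the transgene or say whether untagged Zfh2 was also present. Signal values are the scores that the peak caller gave each peak. They have no fixed scale, and read depth is unknown. With 2 libraries of 1 group, the smallest two-sided p of a paired permutation test is 0.5, so values are given per replicate with no test, and exact intervals cover counting error over peaks.

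Zfh2 is a very large transcription factor with many zinc fingers and several homeodomains, known from the embryonic nervous system and from the proximal parts of wing and leg. Homeodomains typically bind short words with the core TAAT. Sequence between genes in the fly holds enhancers, which raise transcription from a distance, and insulators, which separate one regulatory domain from the next. CTCF and Su(Hw) are zinc finger proteins bound at insulators. Dref, BEAF-32 and M1BP are known mainly from promoters of widely expressed genes, and BEAF-32 is also an insulator protein.

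A small group of intergenic peaks held a word that was rarer at gene-body and promoter peaks. The word AGNTGGCGC, the core of the sequence bound by CTCF, lay within 50 bp of the summit in 14 of 330 members (4.24%, exact 95% interval 2.34 to 7.02%). It is shown here for 11 of these members, as 45 bases read on the strand of the word, with the word in capitals (genome build dm6, RefSeq sequence, ordered by falling peak signal).
gap between lncRNA:CR45303 and lncRNA:CR45693, chr2L:14502797-14502841, plus strand: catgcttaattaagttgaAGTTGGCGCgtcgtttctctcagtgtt
gap between jp and lncRNA:CR44149, chr2L:9567466-9567510, minus strand: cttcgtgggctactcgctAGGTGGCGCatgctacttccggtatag
gap between Sox21a and Sox21b, chr3L:14111626-14111670, plus strand: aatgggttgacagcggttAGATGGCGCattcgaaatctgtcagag
gap between Sid and snu, chr3R:28672403-28672447, minus strand: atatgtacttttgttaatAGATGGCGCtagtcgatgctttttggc
gap between Cad89D and Gr89a, chr3R:16497505-16497549, minus strand: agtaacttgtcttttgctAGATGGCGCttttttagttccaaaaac
gap between Jhbp1 and CG14662, chr3R:4970796-4970840, plus strand: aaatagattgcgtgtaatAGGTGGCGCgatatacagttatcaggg
gap between CR31958 and bark, chr2L:3786381-3786425, plus strand: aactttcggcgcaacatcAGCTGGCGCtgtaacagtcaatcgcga
gap between soti and cv-c, chr3R:14391430-14391474, minus strand: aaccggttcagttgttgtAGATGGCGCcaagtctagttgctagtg
gap between Fancm and lncRNA:CR44032, chr3R:21487963-21488007, plus strand: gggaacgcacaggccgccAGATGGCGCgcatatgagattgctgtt
gap between lncRNA:CR45624 and sbr, chrX:10832546-10832590, minus strand: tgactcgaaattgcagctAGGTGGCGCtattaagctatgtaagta
gap between wgn and Rip11, chrX:18635436-18635480, plus strand: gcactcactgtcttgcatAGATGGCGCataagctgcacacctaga
The base before the word was T in 10 of the 14 members. No other position within 18 bases outside the word held one base in more than 8 of the 14. The open position inside the word was A in 8 of 14.

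The bases up to 50 bp from the summit are shown for 5 further members, chosen for strength or for lying upstream of zfh2. They show how varied the strongest intergenic peaks were and what lay upstream of zfh2. Capitals mark any of 17 words that were searched on both strands (dm6, RefSeq sequence). The 17 are words of known factors, words of the core promoter and a dinucleotide repeat.
peak upstream of CG17896, chrX:493946-494046, plus strand: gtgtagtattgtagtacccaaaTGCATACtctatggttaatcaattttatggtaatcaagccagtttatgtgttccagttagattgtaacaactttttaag
peak upstream of chinmo, chr2L:1638743-1638843, plus strand: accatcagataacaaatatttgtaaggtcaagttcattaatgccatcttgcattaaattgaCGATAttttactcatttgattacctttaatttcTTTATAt
peak between C15 and sp3, chr3R:21520330-21520430, plus strand: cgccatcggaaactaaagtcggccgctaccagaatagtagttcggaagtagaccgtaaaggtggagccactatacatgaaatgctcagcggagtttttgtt
peak between Asator and zfh2, farther from zfh2, chr4:489466-489566, plus strand: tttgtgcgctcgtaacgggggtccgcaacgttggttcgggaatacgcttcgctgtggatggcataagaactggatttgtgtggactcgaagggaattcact
peak between Asator and zfh2, nearer to zfh2, chr4:497819-497919, plus strand: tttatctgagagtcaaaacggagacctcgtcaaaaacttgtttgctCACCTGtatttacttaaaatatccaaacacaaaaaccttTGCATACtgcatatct
In the peak upstream of CG17896, the strongest of all members, the capitals mark TGCATAC, which is only part of the word of Su(Hw). In the peak upstream of chinmo they mark the BEAF-32 core word CGATA and TATAAA on the opposite strand. The windows between C15 and sp3 and farther from zfh2 held none of the 17 words, and the window nearer to zfh2 held CAGGTG, on the opposite strand, and TGCATAC.

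The words of Dref and M1BP, known from promoters, were scarce at intergenic summits. The windows of the 3 members that held TATCGATA, the word of Dref, or GGTCACAC, the word of M1BP, are shown with those words in capitals (dm6, RefSeq sequence).
peak between IP3K1 and ppk16, chr2L:9779246-9779346, plus strand: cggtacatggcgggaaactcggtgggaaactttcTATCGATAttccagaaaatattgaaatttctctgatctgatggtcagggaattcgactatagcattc
peak upstream of Sumo, chr2L:6968260-6968360, plus strand: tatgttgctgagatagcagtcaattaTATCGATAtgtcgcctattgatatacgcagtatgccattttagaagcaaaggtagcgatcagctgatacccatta
peak between slp1 and slp2, chr2L:3832477-3832577, plus strand: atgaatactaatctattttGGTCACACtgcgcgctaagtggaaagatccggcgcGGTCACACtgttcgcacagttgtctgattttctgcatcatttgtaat
The slp1 to slp2 window held GGTCACAC at 2 positions. The peak between IP3K1 and ppk16 had a signal of 134.7, with 88.9 in replicate 1 and 48.8 in replicate 2, and lay 3088 bp upstream of IP3K1, which encodes an inositol trisphosphate kinase. The peak upstream of Sumo, the gene for the SUMO protein modifier, had 73.6, with 43.0 in replicate 1 and 57.1 in replicate 2. The peak between the pair-rule genes slp1 and slp2 had 123.2, with 72.4 in replicate 1 and 50.1 in replicate 2. None of the 3 was among the 20 strongest members.

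The CTCF word was set against other sequence in 4 ways. It was present in 2 of 660 windows centred 1000 bp to either side of the members (0.303%, exact 95% interval 0.0367 to 1.09%), so that the summit share was 14 times that of the flanks in a ratio that rests on 2 flank windows. It was present in 15 gene-body peaks (1.24%, 0.693 to 2.03%) and in 27 promoter peaks (0.964%, 0.636 to 1.40%). It was present in 0.230% of all 353108 windows of the same length that tile the eligible sequence, meaning bases outside gene bodies and over 500 bp from a TSS. The interval of the intergenic peaks lay above each of these values and above the intervals of both other peak classes. The rise of the word over flanks was not particular to the intergenic peaks. Gene-body peaks had it in 0.0824% of their own flanks, a ratio of 15, and promoter peaks in 0.339%, a ratio of 2.84. No test over regions was made. The word was 1 of 17 searched and was put forward after values had been seen. The intervals do not allow for that choice. A word in a window is a description of the letters and does not show that CTCF was bound there.

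The 14 peaks with the CTCF word were spread over the range of signal. Of these, 7 ranked above and 7 below the median of the members, and their median signal was 101.6 (66.4 to 398.6), with medians of 66.8 in replicate 1 and 40.5 in replicate 2. The centre of the word lay at a median of 25.5 bp from the summit and at most 42 bp from it. They were on 5 arms, with 5 on 3R, 3 each on 2L and 2R, 2 on X and 1 on 3L. By gap orientation, 9 lay between genes that point the same way, 3 between convergent genes and 2 between divergent genes. In the 200 bp around the summits, the word began in 12 members within the 100 bp before the summit and in 6 members within the 100 bp after it, whereas between 1 and 3 members held it in each of 4 other bins of 100 bp out to 500 bp and none in the remaining 4.

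Individually, the strongest peak with the CTCF word, on 2R 657 bp upstream of CG14762 at 8014412, had a signal of 398.6, with 226.0 in replicate 1 and 172.1 in replicate 2. The next, in the gap between lncRNA:CR45303 and lncRNA:CR45693 on 2L at 14502806, had 244.6, with 149.1 in replicate 1 and 98.9 in replicate 2. The peak 763 bp upstream of jp, which encodes junctophilin, had 219.7, with 122.8 in replicate 1 and 96.4 in replicate 2. All 3 exceeded the medians of the members in both replicates. Between the Sox transcription factor genes Sox21a and Sox21b the signal was 181.5, with 87.6 in replicate 1 and 90.2 in replicate 2. At the weak end, the peak 553 bp upstream of wgn, a tumour necrosis factor receptor gene, had 66.4, with 21.9 in replicate 1 and 38.2 in replicate 2. Others lay beside snu, an ABC transporter gene, and beside sbr, an mRNA export gene. These peaks were picked for the word after their values had been seen.

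The words of Dref, M1BP and BEAF-32 were rarer in intergenic peaks than in promoter peaks. TATCGATA was in 2 members (0.606%, exact 95% interval 0.0735 to 2.17%), 4 gene-body peaks (0.329%, 0.0898 to 0.841%) and 168 promoter peaks (6.00%, 5.15 to 6.94%), against 0.214% of eligible windows. GGTCACAC was in 1 member (0.303%, 0.00767 to 1.68%), 0.165% of gene-body peaks and 90 promoter peaks (3.21%, 2.59 to 3.94%). CGATA, which also lies inside TATCGATA, was in 42 members (12.7%, 9.33 to 16.8%), 13.2% of gene-body peaks and 861 promoter peaks (30.8%, 29.0 to 32.5%), against 10.5% of eligible windows. Words of the core promoter did not show this pattern. TATAAA, the TATA box word, was in 52 members (15.8%, 11.998 to 20.1%), 17.9% of gene-body peaks and 14.04% of promoter peaks, and TCAGT, part of the initiator word, in 63 members (19.1%, 14.99 to 23.8%), 17.1% of gene-body peaks and 17.9% of promoter peaks. For TATCGATA, GGTCACAC and CGATA the intervals of members and promoter peaks did not overlap, while those of members and gene-body peaks did.

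Words of homeodomain, GATA and forkhead factors were no commoner at intergenic summits than in the sequence around them. TAATTA, a homeodomain word, was in 24 members (7.27%, 4.72 to 10.6%), 8.48% of gene-body peaks and 6.29% of promoter peaks, against 8.64% of the members' flanks and 7.40% of eligible windows. GATAAG, a word of GATA factors, was in 8 members (2.42%, 1.05 to 4.72%), 5.52% of gene-body peaks (4.30 to 6.96%) and 6.57% of promoter peaks (5.68 to 7.55%), against 4.55% of the members' flanks. The interval of promoter peaks did not overlap that of the members. TGTTTAC, a forkhead word, was in 6 members (1.82%, 0.670 to 3.92%), 3.87% of gene-body peaks and 3.50% of promoter peaks, against 1.97% of the members' flanks. Other insulator words and an early embryonic word went both ways. GAGAGAG, a word of the GAGA factor, was in 0 of 330 members, which allows a share of up to 0.909% by 3 counts and of 1.11% by the exact 95% limit, against 2.12% of their flanks, 0.988% of gene-body peaks and 1.29% of promoter peaks. A difference from either class of peaks was not detectable at this number of members. TGCATAC was in 10 members (3.03%, 1.46 to 5.50%), 2.64% of gene-body peaks and 1.39% of promoter peaks, against 0.909% of the members' flanks. CAGGTAG, a word of the early embryonic factor Zelda, was in 4 members (1.21%, 0.331 to 3.07%), 0.577% of gene-body peaks and 0.357% of promoter peaks, against 0.455% of the members' flanks.

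**Figure D1:**
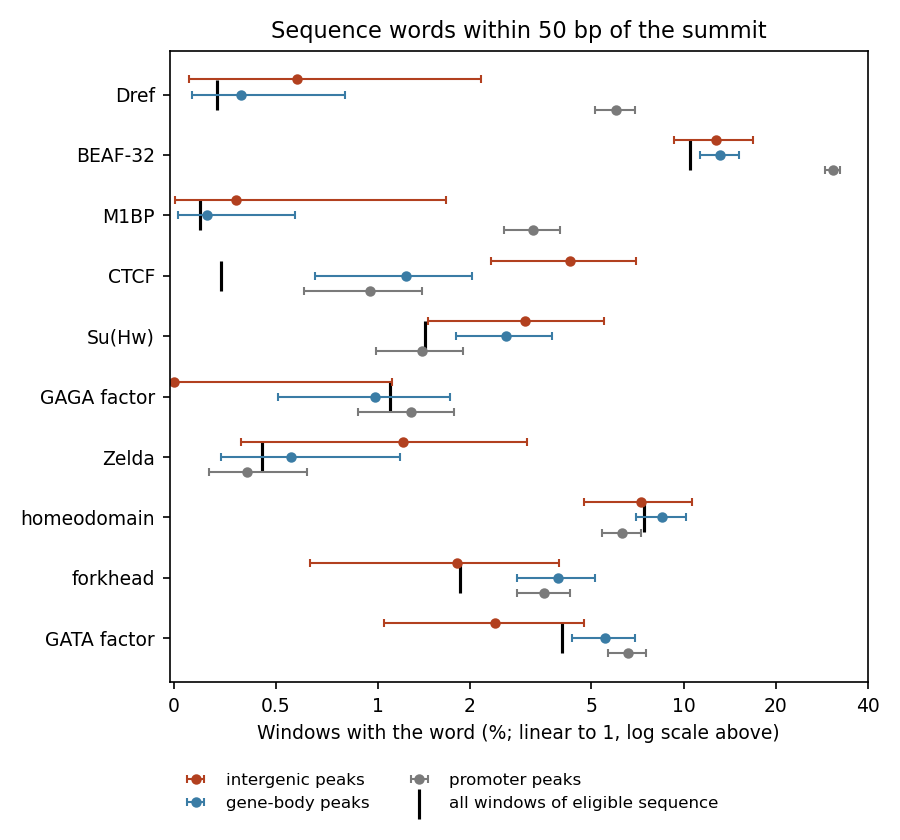
Share of windows within 50 bp of the summit that held a word of each named factor (x axis, percent, linear to 1 and logarithmic above), for intergenic peaks, gene-body peaks and promoter peaks with exact 95% intervals, and for all windows of eligible sequence (black lines). For CTCF the intergenic peaks lie farthest to the right at 4.24%, and for Dref, BEAF-32 and M1BP the promoter peaks do. For Su(Hw) only part of its word, TGCATAC, was searched.

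Among 6-base words, the 10 of greatest enrichment at gene-body peaks were read at the intergenic peaks, which had no part in choosing them. All 10 were commoner at the intergenic summits than in their flanks, with a median ratio of 1.71 (1.33 to 3.53). The 10 leading words of promoter peaks were above a ratio of 1 in 7 cases, with a median of 1.33. As background, 310 of all 422 words found in at least 6% of gene-body peaks, from which the first 10 came, were above 1 in members, with a median of 1.19. For the 399 words found in at least 6% of promoter peaks it was 283, with a median of 1.17. AGTGTA was in 30 members (9.09%, against 2.58% of flanks), a ratio of 3.53, and CGATAG, the leading promoter word, had a ratio of 1.09 in members against 6.18 in promoter peaks. A set of 4 partly overlapping words was then formed, with ACAGTG as the first, ACACTG as the second, then ACTGTA and with AGTGTA as the last. At least 1 of them was in 83 members (25.2%, 20.6 to 30.2%), against 25.6% of gene-body peaks, 25.5% of promoter peaks and 11.3% of eligible windows. These 4 were chosen after values had been seen, and their share was similar in all 3 classes.

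Intergenic summits were AT-rich relative to the sequence beside them. Mean G+C was 37.4% ± 7.81 in the members (SD over 330 peaks), against 41.7% ± 10.3 in their flanks and 40.9% ± 9.73 in eligible windows. Gene-body peaks had 35.5% ± 7.98 and promoter peaks 38.8% ± 9.17. The summits of 1 replicate alone gave members a mean of 38.9% from replicate 1 and 35.4% from replicate 2. The other classes were not recomputed in this way, so the place of the members between them was not tested in single replicates.

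**Figure D2:**
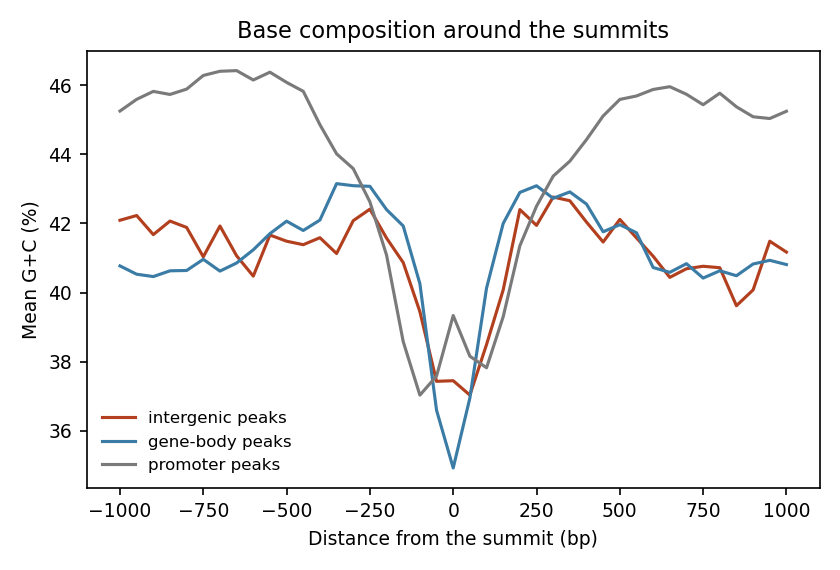
Mean G+C (percent) against distance from the summit (bp) for intergenic, gene-body and promoter peaks, in the same windows of the dm6 genome. At the summit the lines are at 37.5%, 34.9% and 39.3%, each below its value 1000 bp upstream (42.1%, 40.8% and 45.3%).

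Intergenic peaks were weaker than promoter peaks and close to gene-body peaks in signal. The median signal was 95.6 in the members (order-statistic 95% interval 90.4 to 100.4), 103 in gene-body peaks (98.6 to 107.3) and 121 in promoter peaks (117 to 125). The interval of the members overlapped that of gene-body peaks and lay below that of promoter peaks. In replicate 1 the medians were 53.7 in members, 57.4 in gene-body peaks and 65.2 in promoter peaks, and in replicate 2 they were 46.4, 49.3 and 58.5 in the same order of classes. The order was the same in both replicates. Of the 100 strongest peaks, 4 were intergenic, 22 in gene bodies and 74 at promoters. The weakest 1086 peaks held 116 members, 35.2% of them, against 30.6% of gene-body peaks and 21.4% of promoter peaks.

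Nearly all members stood in the calls of both replicates, which the reproducibility threshold favours by construction. A call of both replicates covered 323 of the 330 summits (97.9%, 95.7 to 99.1%). The replicates' own summits lay a median of 25 bp apart, and both were intergenic by the same rule for 311 members. Of the 323, 224 had the higher score in replicate 1 and 99 in replicate 2, with a median ratio of 1.21, and the scores of separate lists are on no common scale. Across members the replicate scores had a Spearman correlation of 0.558, a description over peaks that share both libraries. In 7 members a replicate had no call at the summit, and in 5 of these a call of that replicate had its summit within 321 bp. The score of 1 member was 10.7 in replicate 1 and 119.4 in replicate 2, where it shared a call with a stronger member 207 bp away, upstream of RasGAP1. In all, 10 members shared a replicate 2 call with another member and 2 shared a replicate 1 call.

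**Figure D3:**
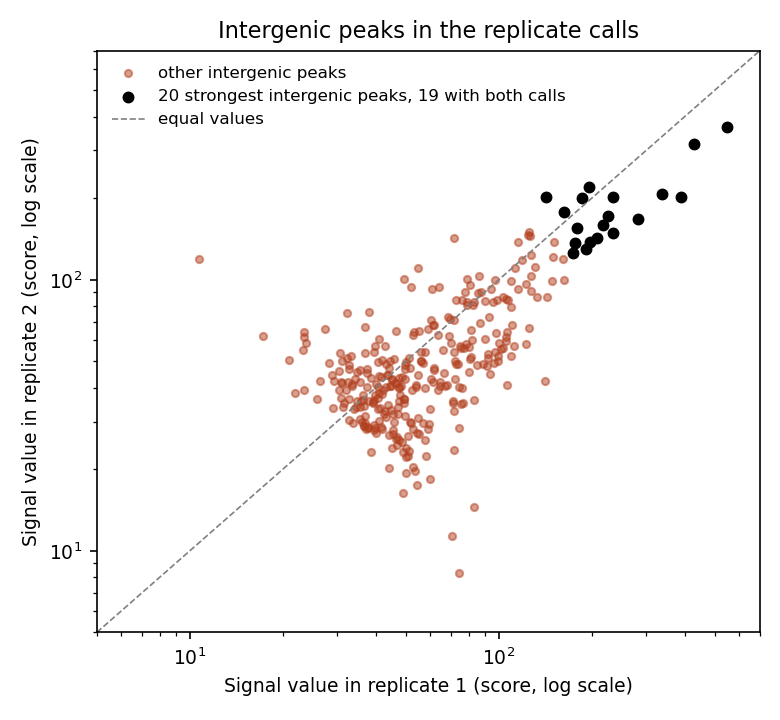
Signal value (caller's score, log scale) in replicate 1 (x axis) and replicate 2 (y axis) for the 323 intergenic peaks called in both, with 19 of the 20 strongest intergenic peaks in black (the other lacked a call in replicate 1) and equal values as a dashed line. Of the 19 black points, 15 lie below the line, and most of the cloud does too.

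The strongest intergenic peak had a signal of 910.5, with 549.9 in replicate 1 and 365.5 in replicate 2. It lay on X at 493996, 501 bp upstream of CG17896 in a gap of 1118 bp to the divergent gene CG17778, so it was a member by 1 bp. Members just over the limit otherwise ranged from 70.4 near CycD to 148.0 near Msr-110, and peaks just under it from 66.9 near lncRNA:CR44256 to 172.0 near Dyro. In wider bands, 26 members 501 to 600 bp from a TSS had a median of 94.3, and 40 intergenic summits 401 to 500 bp from a TSS had a median of 107.3.

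The next 3 peaks in strength lay kilobases from the nearest coding start site. On 2R at 13035346, in the gap of 36783 bp between the Polycomb-related gene Su(z)2 and CG13323, the signal was 747.3, with 427.8 in replicate 1 and 317.7 in replicate 2. On 2L at 1638793 the signal was 730.4, with 422.4 in replicate 2. Replicate 1 had no call over this summit, and its nearest call, of 308.2, had a summit 55 bp away. This peak is in a gap between lncRNA:CR44603 and lncRNA:CR45695, and its summit lay 12465 bp upstream of the nearest coding gene, chinmo, which encodes a BTB zinc finger protein of neuronal temporal identity. On 3R at 16222493, 902 bp upstream of lncRNA:CR45643, it was 600.7, with 388.9 in replicate 1 and 201.4 in replicate 2. A second strong member at 16224506, with 377.9, 233.9 in replicate 1 and 148.3 in replicate 2, lay 1145 bp upstream of tara, a trithorax-group gene, and tara was also the nearest coding gene of the first, at 3158 bp.

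Some of the 20 strongest members are described here by genes beside them, which were picked from a longer list. Other members of the 20 lay beside genes such as CG7484, Glut4EF and alpha-Est9. No share of genes by role was computed over the 20. The peak between C15, a homeobox gene of the distal leg, and sp3 had 416.6, with 195.8 in replicate 1 and 219.5 in replicate 2. It lay 548 bp upstream of sp3 and 7566 bp from the 3′ end of C15. A pair of peaks 3315 and 4530 bp upstream of foxo, the forkhead factor of insulin signalling, had 344.9 and 343.1. In replicate 1 they had 142.4 and 162.4, and in replicate 2 they had 202.8 and 177.8. Between the convergent genes blw, an ATP synthase subunit, and CycB, the mitotic cyclin B, the signal was 523.4, with 337.8 in replicate 1 and 206.6 in replicate 2. Upstream of stck, a focal adhesion gene, at 1280 bp, it was 383.6, with 185.6 in replicate 1 and 200.0 in replicate 2. At all of these peaks both replicates were above their medians over the members.

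Most members had an interval of 1 fixed width, and these were the weaker ones. The 256 members with an interval of exactly 400 bp had a median signal of 84.1, and the 73 narrower ones a median of 210.0. Widths ran from 100 to 494 bp. The 1 member wider than 400 bp was the third strongest, in the gap between lncRNA:CR44603 and lncRNA:CR45695.

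Members gathered in some gaps between genes. The 330 peaks lay in 275 of 6528 gaps with eligible sequence, of which 42 gaps held at least 2 members (97 members in all), and 9 held at least 3. These counts take 10 neighbouring pairs within 250 bp of each other as separate members. The number expected from gap length was not computed. The gap between lncRNA:CR44603 and lncRNA:CR45695, 20910 bp long (2L, 1626022 to 1646931), held the most, with 6 members within 15071 bp. It lies upstream of chinmo without bordering it. The gap that does border chinmo, beyond lncRNA:CR45695, held 1 member, with a signal of 80.5. From left to right the signals of the 6 members were 125.2, 140.9, 326.9, 353.5, 730.4 and 241.2. For those of 125.2 and 140.9 the nearest coding gene was RFeSP. The first 4 had 79.9, 69.7, 197.9 and 208.0 in replicate 1 and 45.8, 71.6, 137.5 and 143.2 in replicate 2. For the sixth, replicate 1 gave 138.3 and replicate 2 had no call over the summit. All 6 were above the median of the members. A second gap on 2L, between lncRNA:CR45303 and lncRNA:CR45693, held 4 members with signals of 102.8, 134.8, 244.6 and 108.9.

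Even so, members were more isolated than other peaks. The nearest other peak was a median of 5212 bp away for intergenic peaks, 3242 bp for gene-body peaks and 3809 bp for promoter peaks. Another peak lay within 1000 bp for 16.4% of members (12.5 to 20.8%), 23.2% of gene-body peaks (20.9 to 25.7%) and 23.8% of promoter peaks (22.2 to 25.4%). The members' interval ended below those of both other classes. No other peak lay within 20000 bp for 23.3% of members, 12.4% of gene-body peaks and 11.7% of promoter peaks. The nearest other peak was at a promoter for 150 members, intergenic for 115 and in a gene body for 65.

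Intergenic peaks crowded towards start sites well beyond the 500 bp that the rule removed. The median distance to the nearest TSS was 1881 bp (order-statistic 95% interval 1616 to 2225 bp), against 5942 bp for eligible bases. Per Mb of eligible sequence there were 32.2 members at 501 to 1000 bp, 17.5 at 1001 to 2000 bp, 11.03 at 2001 to 5000 bp, 5.58 at 5001 to 10000 bp and 1.55 beyond. With transposable elements left out of the eligible sequence these were 33.2, 18.5, 11.9, 6.33 and 1.83 per Mb. The density thus fell at every step, while the strength of the peaks did not follow it. Median signals in the same bins were 98.7, 96.9, 92.5, 88.4 and 104, and the Spearman correlation of distance with signal was −0.055 over the 330 peaks. For scale, there were 154 promoter peaks per Mb of promoter sequence and 15.3 gene-body peaks per Mb of gene body.

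**Figure D4:**
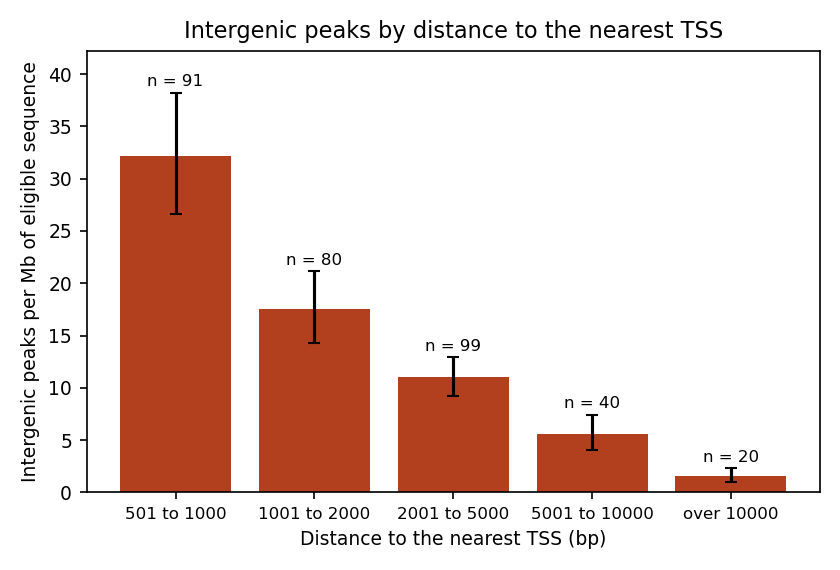
Intergenic peaks per Mb of eligible sequence (y axis) by distance of the summit to the nearest TSS (x axis, bp), with the number of peaks above each bar and exact 95% intervals of each bin's share of peaks as error bars. The density falls from 32.2 per Mb in the nearest bin to 1.55 per Mb in the farthest.

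The most remote members were of modest and strong signal alike. The peak farthest from a TSS, on 3L at 1139659 in the gap between bab1 and bab2, a pair of BTB transcription factor genes of limb and ovary, lay 37617 bp away. This peak was nonetheless close to a gene, 770 bp from the 3′ end of bab2. Its signal was 88.5, with 56.9 in replicate 1 and 29.7 in replicate 2. The second, 31886 bp from a TSS between NijA and CG43245, had 270.3, with 149.8 in replicate 1 and 121.1 in replicate 2. Another, 26203 bp away in a gap beside the POU-domain gene vvl, had 76.0. The remaining 2 of the 5 most remote had 157.4, at 19064 bp, and 67.6, at 15970 bp. The nearest TSS of the last was that of dan, a gene of antennal identity, and its gap is bordered by lncRNA:CR46474 and lobo.

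Members lay upstream of their nearest gene more often than eligible sequence did. The summit was upstream of the nearest TSS in 221 members (67.0%, 61.6 to 72.0%), against 58.5% of eligible bases. Gaps between divergent genes, where both neighbours start, held 88 members (26.7%, 21.97 to 31.8%), against 20.3% of eligible bases. Gaps between convergent genes held 72 (21.8%, 17.5 to 26.7%), against 25.5%, and gaps between genes of the same direction 170 (51.5%), against 50.5%. In density these were 11.9, 7.73 and 9.24 members per Mb. The nearer gene border was a 5′ end for 173 members (52.4%, 46.9 to 57.9%), against 47.1% of eligible bases, a share just inside the interval. Since eligible sequence lies farther from start sites than the members do, these shares are not matched for distance. The nearest TSS belonged to a protein-coding gene for 231 members (70.0%, 64.7 to 74.9%), against 67.1% of eligible bases, and to a noncoding RNA gene for 93 (28.2%, 23.4 to 33.4%), against 25.9%.

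Density differed between chromosome arms. Per Mb of eligible sequence there were 12.5 members on 2L (10.24 to 14.997), 7.12 on 2R (5.44 to 9.07), 8.15 on 3L (6.56 to 9.93), 7.56 on 3R (5.86 to 9.52), 16.3 on chromosome 4 (4.46 to 41.4) and 10.7 on X (8.30 to 13.5), against 9.05 over all arms. The interval of 2L lay above those of 2R, 3L and 3R, and the 4 members on chromosome 4 gave too wide an interval to set it apart. The gap between lncRNA:CR44603 and lncRNA:CR45695 and the gap between lncRNA:CR45303 and lncRNA:CR45693 contributed 6 and 4 of the 84 members on 2L. Members made up 10.7% of the peaks on 2L, 5.69% of those on 3R and 6.87% of those on X.

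**Figure D5:**
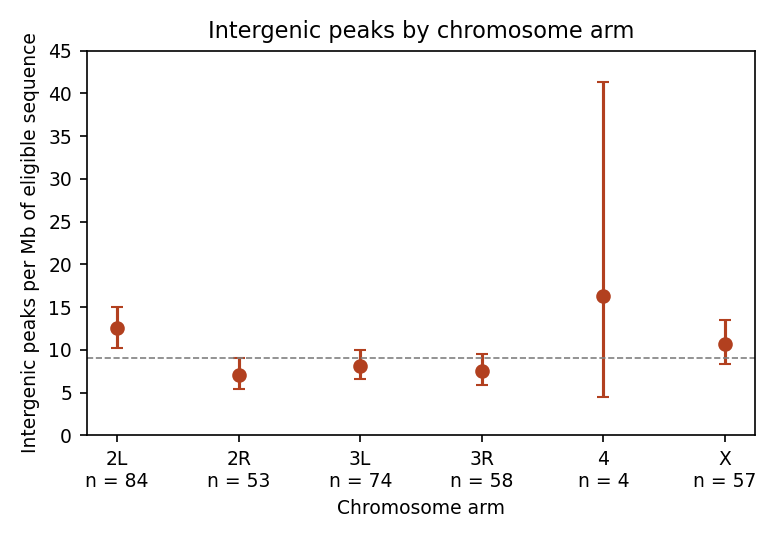
Intergenic peaks per Mb of eligible sequence (y axis) on each chromosome arm (x axis, with the number of peaks), with exact 95% intervals of each arm's share of peaks as error bars and the density over all arms, 9.05 per Mb, as a dashed line. The 2L interval, from 10.24 to 14.997, lies above the line, the upper end of the 2R interval just reaches it, and the interval of chromosome 4 spans most of the axis.

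The 4 members on chromosome 4 included a pair in the gap of 12815 bp upstream of zfh2 itself, the gene of the tagged protein. Whether the tagged copy is the one at this place or an inserted one was not examined. One lay at 489516, 12294 bp from the 5′ end of zfh2 and 522 bp upstream of the divergent kinase gene Asator. Its signal was 192.0, with 125.1 in replicate 1 and 66.5 in replicate 2, above the members' medians in both. The other lay at 497869, 3941 bp upstream of zfh2, with 82.2, 58.3 in replicate 1 and 22.3 in replicate 2, which was above the median in replicate 1 and below it in replicate 2. Another, with 94.1, 49.8 in replicate 1 and 43.1 in replicate 2, lay at 696890 between myo, a TGF-beta family ligand gene, and ey, the fly Pax6 gene, 799 bp upstream of ey. The strongest, with 230.9, 127.0 in replicate 1 and 103.6 in replicate 2, lay at 424807, 1260 bp upstream of lncRNA:CR43437.

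Transposable elements held few members. The summit lay in an annotated element in 2 members (0.606%, 0.0735 to 2.17%), against 10.8% of eligible bases, and the interval overlapped one in 7 (2.12%). How reads that map to several places were treated is not stated in the material at hand, and its part in this share was not tested. Both elements were INE-1, an old and abundant fly repeat. One of the 2 peaks was that between IP3K1 and ppk16. The other, at 4030648 on 2L, 729 bp upstream of ed, a cell adhesion gene, had 77.9, with 33.6 in replicate 1 and 40.7 in replicate 2. Summit bases in soft-masked repeats of any kind numbered 48 (14.5%, 10.9 to 18.8%), against 26.6% of eligible bases.

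Genes beside the members were read by family. As background, 398 of 7618 protein-coding genes that border eligible sequence had a member in a bordering gap, which is 5.22%. Of signalling ligand and receptor genes 6 of 38 did (15.8%, 6.02 to 31.3%), above the background in number, though the interval treats the genes as independent. They were upd1, a JAK-STAT ligand (132.4), the Hedgehog receptor ptc (130.0), the BMP antagonist sog (110.5), the EGF-receptor ligand vn (83.7), and wg and Wnt4, which share 1 member of 76.6 between them, so that 5 peaks stand behind the 6 genes, and no separation from the background was shown. In the replicates, the upd1 peak had 61.7 in replicate 1 and 68.3 in replicate 2, and the ptc peak had 69.0 and 61.8. These signals were moderate, and the 3 highest were above the median of the members.

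The intervals of the other families all included the background. Homeobox genes with a member numbered 6 of 79 (7.59%, 2.84 to 15.8%): C15 (416.6), zfh2 (192.0), ems of head development (119.0), ey (94.1), B-H2 (91.9) and vvl (76.0). Neuronal genes numbered 3 of 41 (7.32%, 1.54 to 19.9%): nAChRalpha7 (268.4) and nAChRalpha5 (122.1), both nicotinic acetylcholine receptor subunits, and ple (190.5), tyrosine hydroxylase of dopamine synthesis. For nAChRalpha7 the replicates gave 124.8 and 146.2, and for ple 107.5 and 84.2. Of bHLH genes 1 of 36 had a member (2.78%, 0.0703 to 14.5%), hry, the pair-rule gene hairy, whose stronger member had 90.4. Of insulator genes 1 of 9 did, mod(mdg4) with 71.1, and of apoptosis genes 0 of 10. A gap can be bordered by a gene far from the peak, so a member beside a gene does not show that it acts on that gene.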

How the data were processed

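The deposited lists are narrowPeak files on dm6: relaxed calls for each replicate, kept by the submitters as input for the irreproducible discovery rate (IDR) and holding background too, and an optimal IDR list of 4344 peaks, per the deposited file descriptions. In them, column 7 is the signal score of each deposited peak, as the caller wrote it. Neither aligner nor caller is named in the sources used here, and dm3 lists were not used.

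Members were classed from the IDR list with Ensembl release 115 (18164 genes on 6 arms, same assembly as dm6) and sequence came from the RefSeq genome of that assembly. Replicate values are those of the relaxed call that covers the summit, and the strongest where several did. Eligible sequence was counted base by base. Each word was searched in both orientations up to 50 bp from the summit. Intervals are exact (Clopper-Pearson, 95%) over peaks, computed with Python 3.11.15, numpy 2.4.6 and scipy 1.17.1. Distances to a TSS and the class rule were checked on simulated positions. The word search, gap borders and intervals were not checked in this way. Members named were drawn from the 20 strongest, those in the fullest gaps, the 5 farthest from a TSS and the 5 on each side of the limit. Those in transposable elements or with TATCGATA or GGTCACAC were also drawn on. Not every member of these sets is named, and several of the 20 strongest are left out. Members with the CTCF word were added after values were seen, as were those on chromosome 4. Members, words and gene lists were chosen with earlier results of these data known. Alternatives changed the annotation, the TSS limit, the window, the list and the replicate. Nothing in the labels says that both replicates came from separate crosses, so their spread may be partly technical.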

Additional observations from a re-analysis of the deposited data

How the results depend on the processing

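Of 131 values recomputed under alternatives, 111 stayed within the interval of the reported value or, for the number of members, within 1.5 times of it, and 20 did not. Some of the 111 had little room to move. With the RefSeq annotation only the gene share differed from the reported values (5.2258% against 5.2245%). The centre of the interval in place of the summit also kept 330 members. Moving the TSS limit to 1000 bp gave 239 members with a median distance of 3099 bp, a 5′ border share of 46.4% and 3.64% of coding genes with a member. A limit of 250 bp gave 501 members, 848 bp, 61.7% and 7.93%. The share of eligible bases at these limits was not computed. With protein-coding genes alone there were 408 members, at a median distance of 3001 bp, and 7.17% of genes had a member. Counting transposable elements as genes left 0% in them by construction. The stronger 2172 peaks of the IDR list held 126 members, with a median signal of 172.2, 11.9% on X and 2.17% of genes. Windows of 25 bp on each side held TAATTA in 3.33% and the CTCF word in 1.52% of members, and windows of 100 bp held TAATTA in 13.3%. Requiring replicate summits within 50 bp left 76.4% in both replicates. Summits of 1 replicate alone gave G+C of 35.4 to 38.9% at the summits. Under all other alternatives the CTCF word stood in 3.39 to 4.85% of members. Gene-body and promoter peaks were not recomputed under the alternatives. Whether the members stayed above them in the CTCF word was therefore not checked, in the narrower windows or with 1 replicate. The share of the CTCF word and the RefSeq annotation, which left all 330 members intergenic, were added after seeing the data. No paired analysis was possible because there is 1 group. Read depth is unknown, and each statement rests on 2 libraries.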
